A study of Mus musculus with 22 samples.

Results

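The 9 homeostatic microglia genes described here are Cx3cr1, P2ry12, P2ry13, Tmem119, Siglech, Fcrls, Csf1r, Gpr34 and Olfml3. They were taken from a named list and matched by gene identifier to the 23119 genes of a count table, and all 9 were found. The RNA came from bulk striatum of adult C57BL/6J male mice, in 22 sequencing libraries. Oxycodone, an opioid analgesic, was self-administered at 0.25 mg/kg per infusion for 4 h a day over 14 days, and yoked controls were infused with saline on the same schedule. There were 12 ventral libraries, 6 of each treatment, and 10 dorsal ones, 5 of each. The labels give no age beyond adult and name no genetic modification. They do not tie libraries to individual mice, so the p-values measure the spread between libraries. In each dorsal group replicates 2 and 3 share a title number, and whether these are from 1 mouse was not tested. With each such pair summed to 1 sample, the counts of members called were the same as with n = 5 in every comparison of dorsal libraries.

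Microglia are the resident macrophages of the brain parenchyma. In the undisturbed brain they carry a set of receptors and surface proteins with which they survey neurons and synapses, and many of these transcripts fall when microglia take up a reactive or damage-associated state. Csf1r is the receptor for the survival factors Csf1 and Il34, and Cx3cr1 is the receptor for neuronal fractalkine, Cx3cl1. P2ry12 and P2ry13 are receptors for extracellular ADP, and Gpr34 is a receptor for lysophosphatidylserine. Siglech is a sialic acid-binding lectin, Fcrls is an Fc receptor-like protein, Tmem119 is a transmembrane protein used to mark microglia, and Olfml3 is a secreted olfactomedin-like protein.

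Levels are given as CPM (counts relative to the library total), scaled by TMM factors that correct for differences in library composition. Ventral libraries held 8408829 to 11000345 counts and dorsal ones 11314079 to 21921963. The mitochondrial share was 5.98% to 9.25% in the ventral set and 2.93% to 4.12% in the dorsal set. Among dorsal counts of 2 to 40, between 71.4% and 77.9% were even, against 52.6% to 54.4% in ventral libraries. These differences ran with region, so region cannot be told apart from library set. Mate counting is not given in the sources used here, so dorsal totals and counts may exceed the number of sequenced fragments. With the dorsal counts halved, 6 members were called between regions in saline and 5 in oxycodone, as with the counts as deposited. The sixth library of each ventral group stood apart by its marker genes: 10 striatal projection neuron markers summed to 243 CPM in saline replicate 6, the lowest ventral value, and to 5350 CPM in oxycodone replicate 6, the highest. Results of members that rest on ventral libraries are given with and without both where they moved. Counts and sums of the other gene lists use all ventral libraries.

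All 9 genes were detected in all 22 libraries. The fewest counts of any member in a library were 54, for Tmem119, and the most were 3513, for Csf1r. In bulk tissue, fewer microglia and less RNA per cell cannot be told apart. Of 14 lymphocyte genes, Cd3e, Cd3d and Ms4a1, which define T and B cells, were at 0 in every dorsal library. Cd4 had 43.2 to 65.6 CPM and Ighm 9.39 to 26.2 CPM in dorsal libraries, and the list summed to 56.5 to 83.8 CPM there and to 16.8 to 56.4 CPM in ventral ones. The list of 28 other microglia and macrophage genes, Ptprc among them, was detected in full.

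Per kilobase of exon, Csf1r was the most abundant member in all 4 groups, from 21.4 ± 3.80 CPM per kb in ventral saline (SD, n = 6) to 34.0 ± 3.79 in dorsal oxycodone (SD, n = 5). P2ry12 followed in 3 groups, at 14.7 ± 1.12 CPM per kb in ventral saline, 14.6 ± 2.57 in ventral oxycodone and 15.0 ± 1.03 in dorsal saline. Fcrls came next in those groups, at 10.3 ± 1.51, 10.6 ± 0.843 and 14.7 ± 3.75 CPM per kb. In dorsal oxycodone the order of both was exchanged, with Fcrls at 16.3 ± 1.47 and P2ry12 at 12.5 ± 2.39 CPM per kb. P2ry12 and Fcrls lay closer than their SDs in dorsal saline. Gpr34 came after these in every group, from 6.03 ± 0.761 to 8.73 ± 1.56 CPM per kb. The other 5 members lay between 3.10 and 6.73 CPM per kb, and neighbours in the order differed by less than the larger SD of the pair, except Cx3cr1 (4.73 ± 0.583) and Olfml3 (3.84 ± 0.458) in ventral oxycodone. Their order also changed with the length used: Siglech ranked 8 of 9 by all exons and 5 of 9 by its longest coding transcript in every group.

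**Figure D1:**
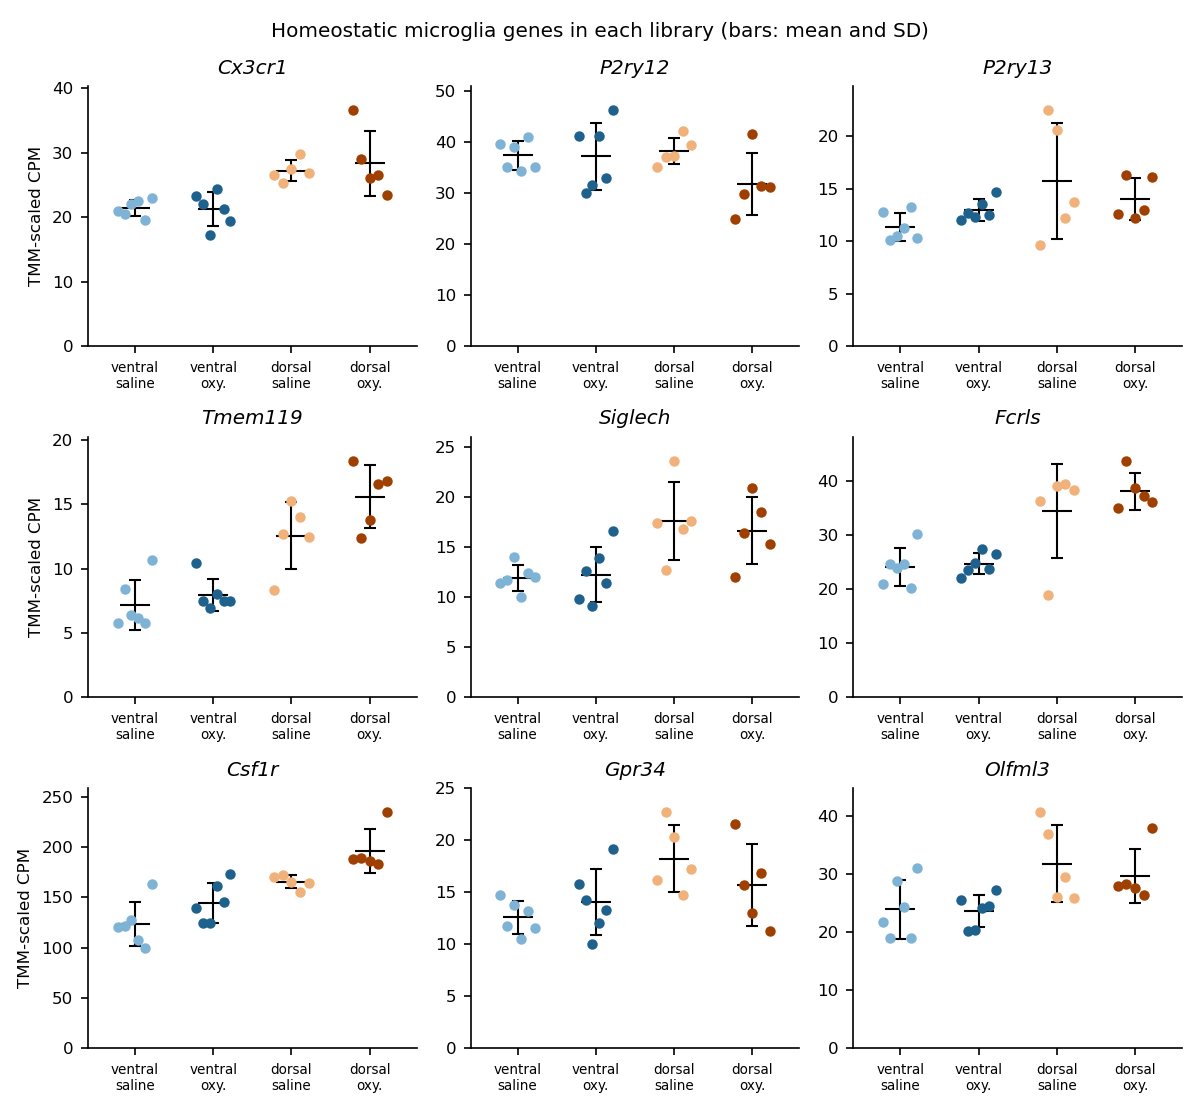
TMM-scaled CPM (vertical axis, linear, from 0) of each member in each of the 22 libraries, by group, with the mean and SD as bars. Dorsal means lie above ventral ones for Tmem119, Fcrls and Csf1r, though the saline libraries of the regions overlap for each. P2ry12 averages 37.2 to 38.2 CPM in 3 groups and 31.7 CPM in dorsal oxycodone.

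The first comparison asked whether oxycodone self-administration altered the members in ventral striatum. None of the 9 passed the edgeR quasi-likelihood test (Benjamini-Hochberg adjusted over 14116 genes, threshold 0.05), and the background share of genes called was 0%. No member had an unadjusted p under 0.05, against 9.13% of all genes tested. DESeq2 called 0.269% and limma-voom 0.432% of genes, no member among them. The members' median log2 fold change was 0.05, with 7 of 9 above 0, beside a median of -0.003 over all genes tested.

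With all ventral libraries, Csf1r had the largest log2 fold change among the members. Its lead was not stable. Single libraries left out gave 0.17 to 0.33 for Csf1r and 0.068 to 0.31 for Tmem119, which had 0.16 with all. Saline replicate 6 held the highest saline value of both genes. The level of Csf1r ran from 99.8 CPM through a median of 121 to 163 CPM in the 6 saline libraries, and from 124 through 142 to 173 CPM in the 6 oxycodone ones. The groups overlapped, with 1 oxycodone library above all saline ones. The log2 fold change was 0.24 (SE 0.12, 95% interval -0.03 to 0.50, edgeR adjusted p = 0.580). P2ry13 ranged from 10.1 through 10.9 to 13.2 CPM in saline and from 12.0 through 12.6 to 14.7 CPM in oxycodone, a log2 difference of 0.20 (SE 0.10, edgeR adjusted p = 0.563). Only 2 of the 6 oxycodone libraries exceeded all saline ones for P2ry13.

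Cx3cr1 and P2ry12 had ventral means that were nearly equal in both treatments. Cx3cr1 averaged 21.5 ± 1.29 CPM in saline and 21.3 ± 2.63 in oxycodone (SD, n = 6 each), and its fold of 0.998 had a 95% interval of 0.875 to 1.14. P2ry12 averaged 37.3 ± 2.86 and 37.2 ± 6.55 CPM, a fold of 1.00 with an interval of 0.851 to 1.18. For Tmem119, Siglech, Fcrls, Gpr34 and Olfml3 the log2 fold changes lay between -0.01 and 0.17. Over all 9 members the intervals ran from a fold of 0.807, the lower bound for Olfml3, to 1.44, the upper bound for Tmem119.

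In dorsal striatum, the same comparison called none of the 9 members either, against 0.206% of 14595 genes tested. DESeq2 called 0.589% and limma-voom 0.219% of genes, no member among them. Of the members, 1 unadjusted edgeR p among the members, that of Csf1r, was under 0.05, as were 5.64% over all genes. The members' median log2 fold change was -0.09, with 4 of 9 above 0, beside -0.008 over all genes tested. Intervals of the 9 members ran from a fold of 0.652, for Gpr34, to 1.66, for Tmem119.

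Csf1r stood out among the members in dorsal striatum by the separation of its groups. Dorsal saline libraries held 170, 172, 165, 155 and 164 CPM, and dorsal oxycodone libraries held 188, 189, 186, 183 and 235 CPM. No oxycodone value reached down to the highest of the 5 saline values, which was also true of 0.843% of all genes tested. The log2 fold change was 0.25 (SE 0.08, 95% interval 0.08 to 0.41), with an unadjusted edgeR p of 0.0049 and an adjusted p of 0.413. Csf1r was therefore not called, and its exons overlap those of Hmgxb3 on the opposite strand over 873 of 5774 bases, while the strand setting of the counting is not given in the sources used here.

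P2ry12 had the lowest dorsal log2 fold change of the members. Dorsal saline libraries held 35.1, 37.1, 37.3, 42.0 and 39.4 CPM, and dorsal oxycodone ones 24.9, 29.8, 41.6, 31.3 and 31.1 CPM. Of the oxycodone libraries, 4 lay below all saline ones and replicate 3 lay within their range. The log2 fold change was -0.27 (SE 0.14, 95% interval -0.56 to 0.02, edgeR adjusted p = 0.910). P2ry13, the neighbouring ADP receptor gene, held 9.67, 22.5, 20.6, 12.2 and 13.7 CPM in saline and 12.6, 16.3, 12.2, 13 and 16.1 CPM in oxycodone. The saline libraries spread wider than the oxycodone ones and enclosed them, and the log2 fold change was -0.16 (SE 0.22, edgeR adjusted p = 0.998).

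Tmem119 had the highest dorsal log2 fold change, at 0.31 (SE 0.21, edgeR adjusted p = 0.983). Its dorsal saline libraries held 8.34, 12.7, 15.2, 14.0 and 12.4 CPM and its oxycodone libraries 18.4, 12.3, 13.8, 16.6 and 16.8 CPM. The groups overlapped, with 3 oxycodone libraries above all saline ones. Gpr34, Siglech and Olfml3 had log2 fold changes of -0.21, -0.09 and -0.10, and Fcrls and Cx3cr1 of 0.14 and 0.06, all with overlapping groups.

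**Figure D2:**
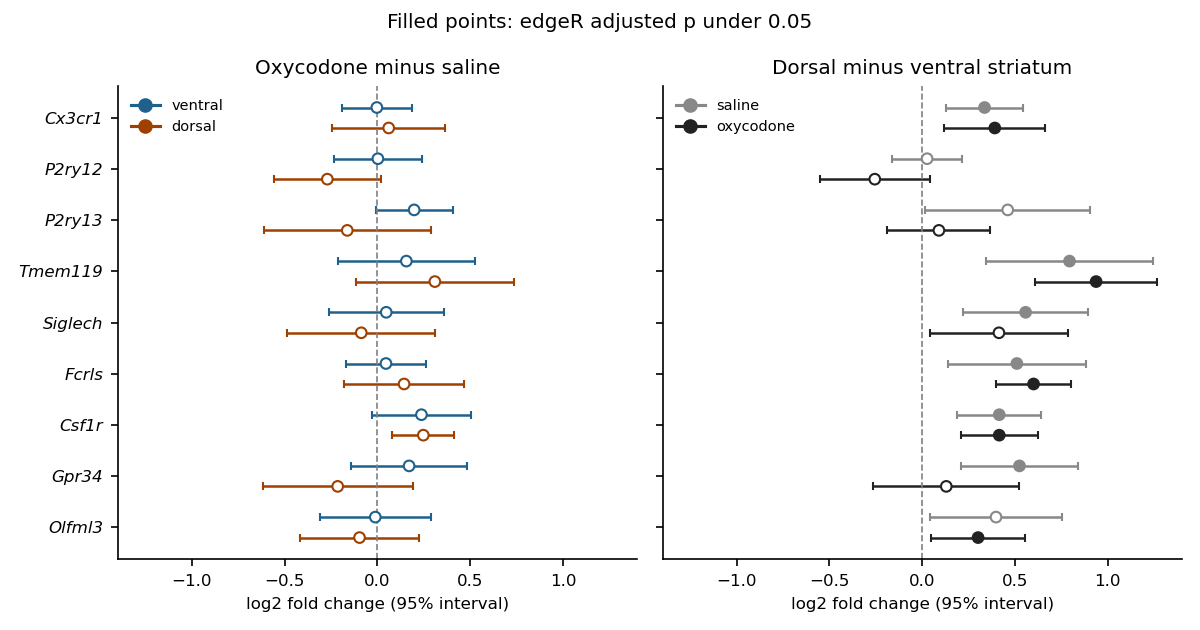
Log2 fold changes of the 9 members (horizontal axis) with 95% intervals, for oxycodone minus saline in each region (left) and dorsal minus ventral striatum in each treatment (right); filled points have an edgeR adjusted p under 0.05. No oxycodone point is filled, and the filled region points, 6 in saline and 5 in oxycodone, all lie above 0.

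The difference between the regions in the oxycodone effect was tested directly, as an interaction over all 22 libraries. It called none of the 9 members and 0% of 14938 genes, while 4.51% of genes and no member had an unadjusted edgeR p under 0.05. DESeq2 and limma-voom also called 0% of genes. The widest differences were for Gpr34, with a log2 difference of -0.38 (95% interval -0.88 to 0.12), and P2ry13, with -0.35 (95% interval -0.86 to 0.15).

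Some leukocyte genes were called in dorsal striatum. Ptprc, the pan-leukocyte phosphatase CD45 that microglia also express, was called higher after oxycodone, at 28.4 ± 9.67 CPM against 13.6 ± 1.65 (SD, n = 5 each; 2.09-fold, edgeR adjusted p = 0.0150). Plac8, found in granulocytes and monocytes, was 4.34-fold higher and Itgal, the leukocyte integrin subunit CD11a, 4.39-fold higher (edgeR adjusted p = 0.0150 and 0.0162). These calls were lost without single libraries: Ptprc, Plac8 and Itgal had adjusted p-values of 0.0538, 0.0538 and 0.0566 without dorsal oxycodone replicate 2, of 0.0849, 0.0979 and 0.128 without oxycodone replicate 5, and of 0.0677, 0.0677 and 0.0896 without saline replicate 5. Itgal's was 0.0538 without saline replicate 3. limma-voom did not call Plac8 or Itgal (adjusted p = 0.0907 and 0.0767).

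Of the 28 other microglia and macrophage genes, Ptprc was the only one called in dorsal striatum, and 23 had positive log2 fold changes with a median of 0.25. Trem2, a lipid-sensing receptor, had a log2 fold change of 0.15, and Tyrobp, its signalling adaptor, 0.10. The transcription factor genes Spi1, Irf8 and Sall1 had 0.58, 0.21 and -0.08. None of the 20 damage-associated microglia genes tested was called, of 22 listed. Lyz2, the lysozyme gene of macrophages and granulocytes, was the nearest to a call, with 22.2 to 77.2 CPM after oxycodone against 10.3 to 16.2 CPM in saline (2.89-fold, edgeR adjusted p = 0.160). Lyz2 was called by DESeq2 (adjusted p = 0.00898), by limma-voom (0.0483), with dispersions estimated without robustness (0.00503), and by edgeR without dorsal oxycodone replicate 3 (0.0234) or 5 (0.0108).

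Blood cell markers were summed in the same dorsal libraries. The summed CPM of 19 monocyte and neutrophil genes ran from 19.0 to 32.5 in dorsal saline and from 34.5 to 96.1 in dorsal oxycodone, and 2 of 12 tested, Plac8 and Itgal, were called higher. Of the other 10, Ccr2, Mmp9 and Csf3r had log2 fold changes of -1.31, -0.49 and -0.13, and 7 had positive ones. DESeq2 called Hp, 1 of these 7, in addition to Plac8 and Itgal. The lymphocyte genes tested, Ighm and Cd4, were not called, with log2 fold changes of -0.56 and -0.12. Ighm ran from 9.39 to 13.2 CPM after oxycodone and from 13.2 to 26.2 CPM in saline (edgeR adjusted p = 0.584). Summed red cell transcripts, haemoglobins and Alas2, ran from 410 to 629 CPM and from 593 to 1780 CPM, with 1 of 5 called. That gene, Alas2, was 1.69-fold higher (edgeR adjusted p = 0.0197), a call lost without saline replicates 2, 3 or 5 (adjusted p = 0.0852, 0.0538 and 0.104) or oxycodone replicate 5 (0.121). DESeq2 and limma-voom each called 2 red cell genes higher, Alas2 and Hbb-bs, and all 5 had positive log2 fold changes. Summed over the 9 members, the ranges were 354 to 375 CPM in dorsal saline and 370 to 423 CPM in dorsal oxycodone. Csf1r alone averaged 165 CPM in dorsal saline and 196 CPM in dorsal oxycodone, the largest part of any member. The mean log2 CPM of the 9 members was 4.81 in both groups, and 4 of 9 had positive log2 fold changes. Border macrophage genes, which mark meningeal and perivascular macrophages, summed to 97.9 to 137 and 93.4 to 157 CPM, with none of 8 tested called. The part of blood cells in the leukocyte changes was not tested.

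In ventral striatum edgeR called no gene of these lists. limma-voom called Spi1 (log2 fold change 1.04, adjusted p = 0.020) and Fcgr3, an Fc receptor gene (0.83, adjusted p = 0.0331), of the 28 other microglia genes. For these, edgeR gave log2 fold changes of 0.67 and 0.60 (edgeR adjusted p = 0.534 and 0.508), and DESeq2 called neither. Of the monocyte and neutrophil genes, DESeq2 and limma-voom each called 1, Hp. Ptprc was at 21.2 ± 9.41 CPM after oxycodone and 12.3 ± 6.41 in saline (SD, n = 6 each; log2 fold change 0.79, edgeR adjusted p = 0.518). Of the 28 other microglia genes, 21 had positive log2 fold changes with a median of 0.21.

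**Figure D3:**
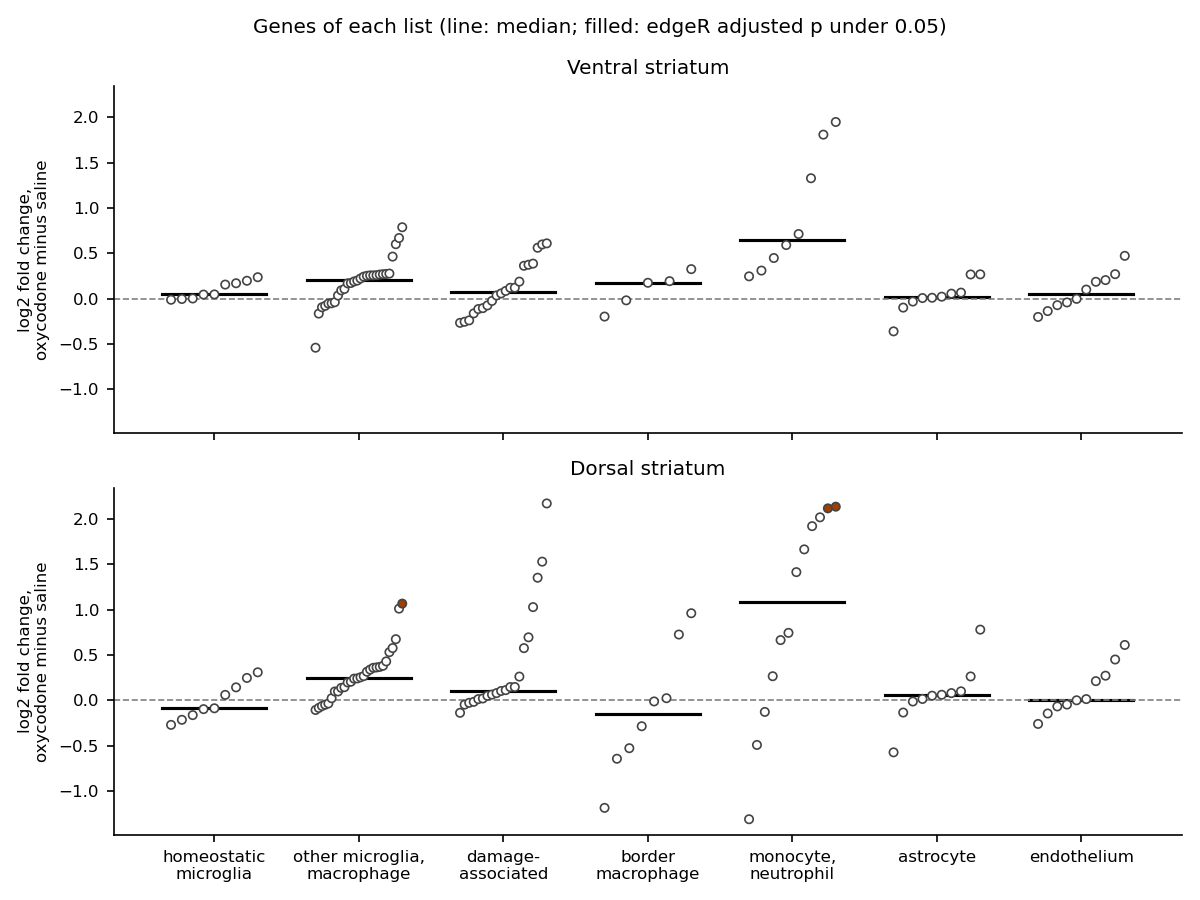
Log2 fold change after oxycodone (vertical axis) of each tested gene in 7 lists, in ventral (top) and dorsal striatum (bottom); lines are list medians and filled points have an edgeR adjusted p under 0.05. The 9 homeostatic members lie between -0.27 and 0.31 in both panels, while Ptprc and 2 monocyte and neutrophil genes are filled in dorsal striatum.

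The ligands of the members' receptors were not called after oxycodone in either region. Cx3cl1 had log2 fold changes of 0.12 in ventral and -0.13 in dorsal striatum, Il34 of 0.09 and 0.09, and Csf1 of -0.08 and 0.35. None of the 15 genes of the ligand and TGF-beta list, which covers the signal that maintains microglial identity, was called in either region. Nor was any of the purine and lysophospholipid partner genes, of which 15 were tested in ventral and 16 in dorsal striatum.

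Between regions, the members were mostly higher in dorsal than in ventral libraries. In saline, 6 of 9 were called higher and none lower, where 45.8% of 14433 genes were called, 23.6% higher and 22.3% lower. In oxycodone libraries, which share no library with the saline comparison, 5 of 9 were called higher and none lower, where 47.2% of 14375 genes were called, 23.5% higher and 23.7% lower. The members' median log2 difference was 0.46 in saline and 0.39 in oxycodone, beside -0.01 and -0.007 over all genes tested. Cx3cr1, Tmem119, Fcrls and Csf1r were called in both.

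Tmem119 differed most. It ran from 5.76 through a median of 6.27 to 10.7 CPM in ventral saline and from 6.91 through 7.52 to 10.4 CPM in ventral oxycodone, below most of the dorsal values given above. The log2 difference was 0.79 in saline (SE 0.21, edgeR adjusted p = 0.00675) and 0.94 in oxycodone (SE 0.15, edgeR adjusted p = 0.000119). In oxycodone all 5 dorsal libraries lay above all 6 ventral ones, as for 15.1% of all genes, and in saline 4 of 5 did.

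Fcrls ran from 20.2 through 24.2 to 30.1 CPM in ventral saline and from 22.1 through 24.3 to 27.4 CPM in ventral oxycodone. Dorsal saline libraries held 36.3, 18.9, 39.0, 39.4 and 38.3 CPM, so that replicate 2 lay below every ventral saline library while the others lay above all of them. The log2 difference was 0.51 in saline (SE 0.17, edgeR adjusted p = 0.0260). That call was lost without ventral saline replicate 5 (adjusted p = 0.0540) and without dorsal saline replicates 1, 3, 4 or 5 (adjusted p = 0.0519, 0.0595, 0.0642 and 0.0639). Dorsal oxycodone libraries held 34.9, 43.7, 38.6, 37.1 and 36.1 CPM, all above the ventral ones, with a log2 difference of 0.60 (SE 0.10, edgeR adjusted p = 9.59e-05).

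Csf1r, with the most counts of the members, had the same log2 difference to 2 decimals in both treatments, 0.41 in saline (SE 0.11, edgeR adjusted p = 0.00512) and 0.41 in oxycodone (SE 0.10, edgeR adjusted p = 0.00249). In oxycodone all dorsal libraries lay above all ventral ones, and in saline 4 of 5 did. Cx3cr1 ran from 19.7 through 21.5 to 23.0 CPM in ventral saline, and its dorsal saline libraries held 26.5, 25.4, 27.5, 29.8 and 26.9 CPM. All dorsal saline libraries lay above all ventral ones, as for 16.3% of all genes, with a log2 difference of 0.34 (SE 0.10, edgeR adjusted p = 0.0107). In oxycodone the ventral range was 17.3 to 24.4 CPM, the dorsal libraries held 36.7, 29.1, 26.1, 26.6 and 23.5 CPM, and the log2 difference was 0.39 (SE 0.13, edgeR adjusted p = 0.0199). The Cx3cr1 call in oxycodone was lost without ventral oxycodone replicate 3 (adjusted p = 0.0533).

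Siglech, Gpr34 and Olfml3 were called in 1 of the 2 treatments. Siglech differed by 0.56 in saline (SE 0.16, edgeR adjusted p = 0.00956) and by 0.41 in oxycodone (SE 0.17, adjusted p = 0.0622). The latter was called without ventral oxycodone replicate 6 (adjusted p = 0.0156) or dorsal oxycodone replicate 1 (adjusted p = 0.0198), and also with library totals (0.0354), upper quartile factors (0.0480) and limma-voom (0.0119). Gpr34 differed by 0.52 in saline (SE 0.15, edgeR adjusted p = 0.00978) and by 0.13 in oxycodone (SE 0.19, adjusted p = 0.591). Olfml3 differed by 0.40 in saline (SE 0.17, edgeR adjusted p = 0.0637) and by 0.30 in oxycodone (SE 0.12, adjusted p = 0.0495). In oxycodone the Olfml3 call was lost without ventral replicates 2, 3 or 4 (adjusted p = 0.0810, 0.116 and 0.0724) and without dorsal replicates 3 or 5 (adjusted p = 0.0531 and 0.108). In saline Olfml3 was called without ventral replicate 6 (adjusted p = 0.0129) or dorsal replicates 3 or 5 (adjusted p = 0.0437 and 0.0475). Whether these treatments differ was covered by the interaction test, which called none of the members.

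The ADP receptors were not called between regions. P2ry12 held 34.2 to 40.9 CPM in ventral saline, a range that includes 4 of the 5 dorsal saline values, and its log2 difference was 0.03 (SE 0.09, 95% interval -0.16 to 0.22, edgeR adjusted p = 0.833). In oxycodone the ventral range was 30.1 to 46.3 CPM and the log2 difference was -0.26 (SE 0.14, edgeR adjusted p = 0.146), with an adjusted p of 0.0370 without dorsal oxycodone replicate 3. P2ry13 differed by 0.46 in saline (SE 0.21, edgeR adjusted p = 0.0840) and by 0.09 in oxycodone (SE 0.13, adjusted p = 0.598). In saline P2ry13 was called without dorsal replicate 1 (adjusted p = 0.0204).

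The ratio of P2ry12 to another member within a library does not depend on the scaling between libraries. It was examined after the levels of P2ry12 had been seen. Exact permutation tests of dorsal against ventral ratios for all 36 member pairs in each treatment were also run at that point and withdrawn, since they could be adjusted only over the members, so the ratios are given without a test. P2ry12 had the lowest regional log2 difference of the members in both treatments, so the direction of its ratios follows from the levels above. P2ry12 to Csf1r had mean log2 ratios of -1.70 ± 0.30 in ventral saline, -1.96 ± 0.13 in ventral oxycodone, -2.11 ± 0.15 in dorsal saline and -2.64 ± 0.31 in dorsal oxycodone (SD, n = 6, 6, 5 and 5). P2ry12 to Fcrls had 0.64 ± 0.30, 0.57 ± 0.23, 0.20 ± 0.43 and -0.28 ± 0.26 in the same order.

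Without both sixth ventral libraries, 7 of 9 members were called higher in saline, beside 27.3% of all genes, and 6 of 9 in oxycodone, beside 24.9%. Leaving out each library in turn gave 5 to 7 calls in saline, with 5 without ventral replicate 5 or dorsal replicate 4 and 7 without ventral replicate 6, where 41.4% to 50.7% of all genes were called. In oxycodone it gave 3 to 6 calls, with 3 without ventral replicate 3, where 41.6% to 47.5% of all genes were called. With all libraries, oligodendrocyte markers also differed between regions, with 8 of 10 called higher in dorsal saline. Their summed levels were 3100 to 4031 CPM in dorsal saline and 460 to 1883 CPM in ventral saline, with medians of 3590 and 1691 CPM. Astrocyte markers summed to 2399 to 3023 CPM in dorsal saline and 2313 to 2744 CPM in ventral saline, with 3 of 10 called higher and 1 lower. In the same saline comparison 23.6% of all genes were called higher and 22.3% lower. Cd4 was 8.17-fold higher in dorsal than in ventral saline (edgeR adjusted p = 3.67e-05). The part of tissue composition in the members' regional differences was not tested.

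Of the 28 other microglia and macrophage genes, 11 were called higher and 3 lower in dorsal saline libraries, beside 23.6% and 22.3% of all genes. Their median log2 difference was 0.17. In oxycodone 13 were called higher and 2 lower, beside 23.5% and 23.7% of all genes. Trem2 was 2.57-fold, Cd53, a tetraspanin of immune cells, 3.56-fold and Irf8 3.00-fold higher in dorsal saline. Sall1, a factor that maintains microglial identity, was lower, at 19.3 ± 2.76 CPM in dorsal saline against 38.5 ± 4.71 in ventral saline, with all dorsal libraries below all ventral ones (SD, n = 5 and 6; 0.499-fold, edgeR adjusted p = 1.41e-05), as for 14.1% of all genes. Aif1, Ptprc and Tyrobp were not called in saline, with log2 differences of 0.18, 0.13 and 0.06. Ptprc was called without ventral saline replicate 6 (adjusted p = 0.0360). In oxycodone Aif1 was called higher in dorsal libraries, with a log2 difference of 0.60 (edgeR adjusted p = 0.00892). Ptprc was not called there (0.40, edgeR adjusted p = 0.280), except in 1 of 11 fits with a single library left out.

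Among the ligands, Cx3cl1 averaged 688 ± 24.3 CPM in dorsal saline and 419 ± 76.8 in ventral saline (SD, n = 5 and 6; 1.63-fold, edgeR adjusted p = 6.70e-05), and was 1.37-fold higher in dorsal oxycodone. Csf1 was lower in dorsal saline, with a log2 difference of -0.65 (edgeR adjusted p = 0.0269), a call lost without ventral saline replicates 3 or 6 (adjusted p = 0.0506 and 0.0530) or dorsal saline replicates 2, 4 or 5 (adjusted p = 0.0648, 0.0529 and 0.0714). Il34 was not called in either treatment (edgeR adjusted p = 0.178 and 0.110), but was without ventral saline replicate 6 (0.0349) and without ventral oxycodone replicate 5 (0.0313). Of the purine and lysophospholipid partners, 7 of 16 tested were called higher and 1 lower in saline, beside 23.6% and 22.3% of all genes. Adora2a, which is also on the striatal projection neuron list, differed most, at 4.37-fold (edgeR adjusted p = 0.0140). Entpd1, the ectonucleotidase CD39 that degrades ATP and ADP, was 2.02-fold higher, Kcnk13, the microglial potassium channel THIK-1, 2.33-fold, and Abhd12, a lysophosphatidylserine lipase, 1.46-fold.

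Promoter sequence is shown for 4 members as reference context, 3 of them called between regions in saline and P2ry12 not. RefSeq promoters on GRCm38.p6 matched 6 of the 9 members, and there was no entry for Tmem119, Csf1r and Gpr34. Each sequence is the 250 bases before the RefSeq start, read 5′ to 3′ on the strand of the gene. Capitals mark GAGGAA and AGGAAGT, or their reverse complements. Cx3cr1 lies at chr9:120068297-120068546 (minus strand), P2ry12 at chr3:59262986-59263235 (minus strand), Siglech at chr7:55767934-55768183 (plus strand) and Fcrls at chr3:87263525-87263774 (minus strand). RefSeq starts differ from the GENCODE M21 gene models. By those models, the Cx3cr1 window lies within its gene, which reaches 120069879, and the Siglech window runs past the gene start at 55768178. Most of the Fcrls window, with its marked stretches, lies within its gene, which reaches 87263738.
Cx3cr1: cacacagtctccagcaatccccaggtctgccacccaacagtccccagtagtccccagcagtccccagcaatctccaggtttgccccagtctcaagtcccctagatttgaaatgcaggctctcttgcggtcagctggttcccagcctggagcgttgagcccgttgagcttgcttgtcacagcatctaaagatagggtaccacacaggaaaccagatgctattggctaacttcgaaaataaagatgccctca
P2ry12: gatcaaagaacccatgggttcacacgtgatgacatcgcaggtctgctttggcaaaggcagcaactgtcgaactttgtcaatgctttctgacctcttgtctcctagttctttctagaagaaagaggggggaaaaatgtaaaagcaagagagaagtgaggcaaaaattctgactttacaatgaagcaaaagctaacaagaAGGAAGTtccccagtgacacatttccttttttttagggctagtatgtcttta
Siglech: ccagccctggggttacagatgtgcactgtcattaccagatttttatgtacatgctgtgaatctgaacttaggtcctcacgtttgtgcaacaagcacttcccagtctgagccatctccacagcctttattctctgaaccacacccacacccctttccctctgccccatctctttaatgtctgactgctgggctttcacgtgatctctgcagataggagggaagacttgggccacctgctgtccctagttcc
Fcrls: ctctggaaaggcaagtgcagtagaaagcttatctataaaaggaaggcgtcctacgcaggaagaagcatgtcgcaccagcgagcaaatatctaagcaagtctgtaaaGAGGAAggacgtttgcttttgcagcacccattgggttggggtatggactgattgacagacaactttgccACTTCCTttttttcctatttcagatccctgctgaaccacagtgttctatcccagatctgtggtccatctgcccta

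GAGGAA, a form of the purine-rich core bound by the myeloid factor PU.1, the product of Spi1, was found in 2 of the 6 member promoters, at -144 in Fcrls and at -48 in P2ry13, and in 23.3% of 32851 promoters of the same length. Both forms in capitals were picked for display after 7 motifs had been searched on both strands and their counts seen, most of them first over windows that ran on past the start. The longer form GAGGAAG was in 2 of 6 member promoters and in 10.6% of all promoters. AGGAAGT, which overlaps both, was in 2 of 6, at -52 in P2ry12 and at -75 in Fcrls, and in 7.7% of all. The 8-base form that joins them was in 0 of 6 and in 2.4% of all. TATAAA was in 1 of 6 and in 12.4% of all, and TGACTCA was in 0 of 6 and in 4.5% of all. The E-box CANNTG was in 6 of 6 and in 66.2% of all promoters. These are matches of letters in a window and describe no binding.

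The gene models were read on GRCm38 from GENCODE M21. P2ry13 (chromosome 3, 59207892 to 59210882, minus strand) and P2ry12 (chromosome 3, 59216272 to 59262871, minus strand) both lie within the span of Med12l on the opposite strand, and P2ry12 shares 9 exon bases with it. Gpr34 (chromosome X, 13632089 to 13640858) lies within the span of Cask on the opposite strand. Csf1r lies on chromosome 18 (61100598 to 61132149, plus strand), Cx3cr1 on chromosome 9 (119901616 to 120069879), Tmem119 on chromosome 5 (113793729 to 113800516) and Siglech on chromosome 7 (55768178 to 55778925). Fcrls (87250758 to 87263738) and Olfml3 (103722222 to 103738001) are also on chromosome 3.

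Within groups, the members varied little together. After removal of each group's mean, the 36 pairwise Pearson correlations of log2 CPM over 22 libraries ranged from -0.46, for P2ry13 and Fcrls, to 0.71, for Csf1r and Olfml3. Their median was 0.07, and 25 of 36 were above 0. The highest after Csf1r and Olfml3 were P2ry12 with Siglech at 0.56 and Siglech with Fcrls at 0.49. All points share library, depth and scaling, and no p is given. Some members had few counts, such as Tmem119 with 54 to 113 in ventral saline and P2ry13 with 110 to 137 in ventral oxycodone. Counting noise at such counts lowers a correlation, and its part here was not tested. Csf1r followed the mean of the other members most closely, at 0.61, and the other 8 lay between -0.01 and 0.31. Without ventral oxycodone replicates 3 and 6, the 2 farthest from the median of the members' mean, Csf1r had 0.48, Siglech went from 0.31 to -0.0067, P2ry12 from 0.25 to -0.056 and Gpr34 from 0.15 to -0.24.

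**Figure D4:**
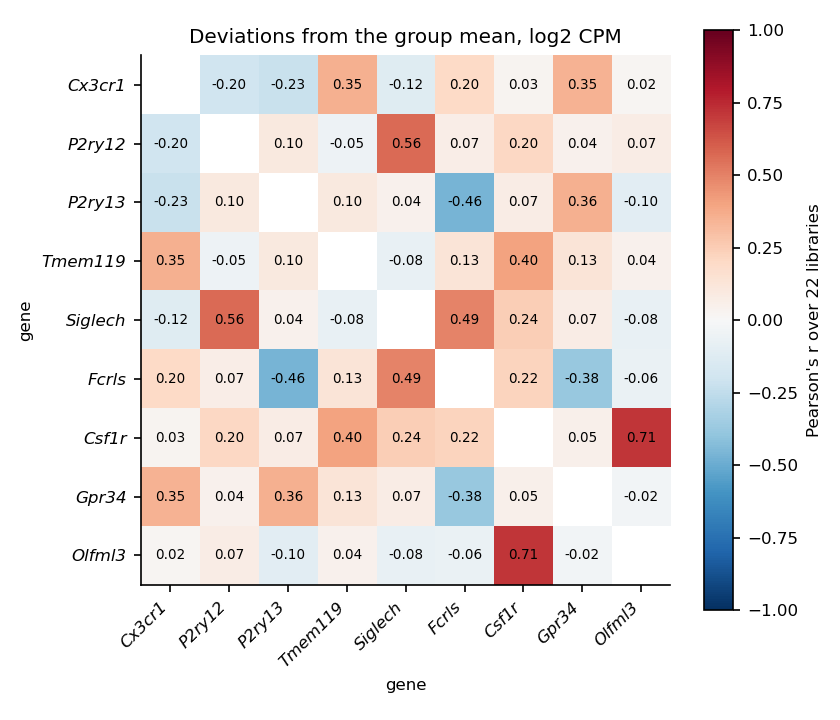
Pearson correlation between members (both axes, genes) of log2 CPM deviations from the group mean over 22 libraries, with the colour scale from -1 to 1. Csf1r with Olfml3 is the highest pair at 0.71, P2ry13 with Fcrls the lowest at -0.46, and most cells lie near 0.

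Of 13894 other genes compared, Ripk2, a kinase of innate immune signalling, had the pattern most like the members' mean, with a correlation of 0.82 (Spearman 0.76) over the same 22 libraries. Leaving out the same 2 libraries gave 0.74. The next were Nphs1 at 0.79, Camk1d at 0.76, Slc2a5, a fructose transporter of microglia, at 0.76, Robo2 at 0.75, Fam78a and Prkcb at 0.74, Ldlrad4 and Coch at 0.73, and Tek at 0.72. Slc2a5 had 0.57 without those 2 libraries. The median over all compared genes was -0.006 and their 95th percentile was 0.45.

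The mean log2 CPM of the 9 members was 4.37 ± 0.10 in ventral saline and 4.46 ± 0.15 in ventral oxycodone (SD, n = 6 each), and 4.81 ± 0.09 in dorsal saline and 4.81 ± 0.007 in dorsal oxycodone (SD, n = 5 each). Ventral saline replicate 6 was the highest of its group for 5 members and ventral oxycodone replicate 6 for 6. The dorsal oxycodone libraries differed less from one another in this mean than any other group, while single members such as P2ry12 and Gpr34 had coefficients of variation of 19.2% and 25.2% there.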

How the data were processed

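The authors' deposited table holds raw counts per Ensembl gene for 22 libraries (23119 genes; no column was left without a sample). Total RNA, a stranded library kit and ribosomal RNA removal are named per the labels' protocols. CASAVA 1.8.2, STAR 2.3 and featureCounts, and the builds mm10, GRCm38 and mm9, stand in the submitters' processing notes without roles, and strand and mate settings are not given in the sources used here. Symbols came from GENCODE M21 for 22205 identifiers (96%). Pairs of libraries within a group were compared by chi-square per degree of freedom, the lowest being 2.88, so no pair was 1 library repeated within counting noise and each was kept as its own sample. This does not tell whether 2 libraries came from 1 mouse.

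The members and gene lists were chosen with earlier results of these data known. Each comparison used only its own groups, in edgeR 4.0.16 (R 4.3.3): TMM factors, filterByExpr, the quasi-likelihood test with robust dispersions, two-sided, Benjamini-Hochberg adjustment over all genes tested and a threshold of 0.05. The interaction used all 22 libraries in 4 groups. Intervals are 95% and rest on the standard error and the test's degrees of freedom, and log2 CPM uses a prior count of 2. The procedure was tested on simulated counts with the same spread for every gene and with changes larger than any of the members'. That test does not tell how often changes as small as the members' would be called. The rule for named genes took all members, up to 3 called genes of each list or else the 2 with the lowest unadjusted p, and a fixed set of ligands, adaptors and lineage factors. Not all genes it covers are printed, and the choice among them was made with their values in view. Other settings tried were scalings, filters, DESeq2 1.42.0, limma-voom (limma 3.58.1) with quality weights, non-robust dispersions, lane or title suffix as covariate or subset, summed pairs, the title number as block, and libraries left out. Halving the dorsal counts was added after most low dorsal counts were seen to be even, and summed pairs between regions and in the interaction after the data were seen. The ratios of P2ry12 to other members were added after its levels had been seen, and tests of the ratios between all members, run at the same point, are not reported.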

Additional observations from a re-analysis of the deposited data

Results flagged for a closer look

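Each member was examined in each of the 4 groups for a single library far from the rest, by the gap of the highest or lowest value to its neighbour relative to the group's range (Dixon's criterion). Of 36 such sets, 4 passed, and chance gives about 1 in 20 sets. Csf1r reached 235 CPM in dorsal oxycodone replicate 5, where the next library had 189 CPM. Olfml3 reached 38.0 CPM in the same library, where the next had 28.3 CPM. Fcrls was at 18.9 CPM in dorsal saline replicate 2, where the next lowest had 36.3 CPM. Tmem119 reached 10.4 CPM in ventral oxycodone replicate 1, where the next had 8.02 CPM.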

How the results depend on the processing

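No member was called after oxycodone, in either region or in the interaction, under any alternative run. The count of all genes called in ventral striatum rose from 0 to 38 with DESeq2 and 61 with limma-voom. In dorsal striatum it was 30, and 86 with DESeq2, 58 without robust dispersions, 17 in libraries without suffix P, 1 in those with it and 1 to 63 when single libraries were left out (1 without saline replicate 5, 63 without oxycodone replicate 3). The suffix subsets hold fewer samples; otherwise the cause was not tested. Called members between regions ranged from 5 to 7 in saline and from 3 to 6 in oxycodone when single libraries were left out.

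Ventral log2 values that changed sign were uncalled. Without both sixth ventral libraries they were 0.037 for Cx3cr1, -0.095 for P2ry12, -0.067 for Siglech, 0.029 for Olfml3 and 0.048 for Csf1. In lane 1 libraries Cx3cr1 had 0.019, P2ry12 -0.039 and Siglech -0.054, and in lane 2 libraries Tmem119 had -0.12, Olfml3 0.057 and Sall1 0.010. P2ry12 had -0.00161 with DESeq2 size factors, -0.018 with library totals, -0.00108 with upper quartile factors, -0.00149 with DESeq2 and -0.12 with limma-voom, which gave -0.061 for Siglech and 0.11 for Csf1. Leaving out single libraries gave -0.050 to 0.050 for Cx3cr1, -0.079 to 0.060 for P2ry12, -0.069 to 0.12 for Siglech, -0.00023 to 0.12 for Fcrls, -0.074 to 0.079 for Olfml3 and -0.17 to 0.098 for Csf1.

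In dorsal striatum, libraries with suffix P gave -0.18 for Cx3cr1, -0.074 for Fcrls and 0.14 for Olfml3, and those without it 0.0014 for Gpr34, -0.023 for Trem2, -0.13 for Irf8, 0.015 for Sall1 and -0.50 for Tyrobp. Single libraries left out gave -0.050 to 0.12 for Cx3cr1, -0.18 to 0.041 for Siglech, -0.0073 to 0.20 for Fcrls, -0.20 to 0.011 for Olfml3, -0.017 to 0.34 for Irf8 and -0.078 to 0.30 for Tyrobp.

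For the interaction, Tmem119 had -0.021 and Csf1r -0.038 without the sixth ventral libraries, and limma-voom gave 0.010 for Siglech, -0.038 for Fcrls and 0.026 for Olfml3. Single libraries left out gave -0.056 to 0.13 for Cx3cr1, -0.22 to 0.0014 for Siglech, -0.048 to 0.16 for Fcrls, -0.078 to 0.078 for Csf1r and -0.18 to 0.0099 for Olfml3. Between regions in saline they gave -0.0059 to 0.063 for P2ry12, -0.091 to 0.40 for Aif1 and -0.15 to 0.24 for Tyrobp, and in oxycodone -0.27 to 0.00299 for Tyrobp. Tyrobp also had -0.0078 in saline with the dorsal libraries of 1 title number summed. The cause of these sign changes was not tested.

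Title numbers are shared between regions, but 1 of 10 same-numbered pairs had correlated deviations over 0.1 (range -0.087 to 0.33), so they were not taken as pairing. With the number as a replicate block, 5 members and 5861 genes were called in saline, 5 and 6657 in oxycodone, and 0 and 0 in the interaction. The members called differed from those without it: in saline Siglech and Gpr34 were not called (edgeR adjusted p = 0.0749 and 0.126) and Olfml3 was (0.0248), and in oxycodone Cx3cr1 was not (0.0531) and Siglech was (0.0430). The same libraries without the block also called Olfml3 in saline (0.0217) and Siglech in oxycodone (0.0365), and not Cx3cr1 in oxycodone (0.0647). The block gave -0.0080 for P2ry12 in saline, and -0.029 for Cx3cr1 and -0.028 for Fcrls in the interaction. The same libraries without the block gave -0.022 for P2ry12 in saline, and -0.019 for Cx3cr1, -0.026 for Tmem119 and 0.024 for Siglech in the interaction. The labels do not name which saline mouse was yoked to which oxycodone mouse, and the treatments share no title number within a region. The tests between treatments therefore left the yoking out.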
